A study of Mus musculus with 10 samples.

Results

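The Id, Hes and Hey factors are nuclear regulators through which BMP and Notch signals act on gene expression, and 9 of them were followed in the prefrontal cortex of Arid1b+/- mice: Id1, Id2, Id3, Id4, Hes1, Hes5, Hes6, Hey1 and Hey2. They are 9 of the 18216 genes measured by RNA sequencing, and they were picked on the comparison of the genotypes itself, because Id4 was higher in the heterozygotes. For that reason their differences between genotypes are given below as a description, and nothing rests on their p-values. All samples were male C57BL/6N pups at postnatal day 10, with 1 library per mouse, and they comprised 5 Arid1b heterozygotes (HT) and 5 wild types (WT). Arid1b encodes an ARID-domain protein of BAF, the mammalian SWI/SNF remodeller of chromatin. The HT mice came from HT fathers and WT mothers and carried in every cell 1 allele with a protein-truncating mutation in exon 5, made with CRISPR/Cas9. Expression is given as normalised read count, that is, estimated reads per gene divided by a size factor for each library.

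Id proteins are helix-loop-helix proteins without a DNA-binding basic region, and they hold E proteins and other basic helix-loop-helix (bHLH) factors off DNA. Their genes are classical targets of BMP signalling through SMAD1, SMAD5 and SMAD9, and in the developing brain they keep precursors undifferentiated and favour astrocytes over neurons. Hes and Hey proteins are bHLH repressors that recruit Groucho co-repressors, and several of their genes are switched on when the cleaved Notch receptor joins the DNA-binding protein RBPJ. In the cortex they maintain radial glia, and some of them mark blood vessels and astrocytes after birth.

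The sequences upstream of 3 of the genes are shown because the genes differ in the letters that RBPJ is known to bind. RefSeq promoter windows of 300 bases (250 before the gene start and 50 after, GRCm38.p6) were matched for 6 of the 9 factors, namely Id2, Id3, Id4, Hes5, Hes6 and Hey2. Entries for Id1, Hes1 and Hey1 were not used here. Motif positions are counted from the RefSeq starts, which for Id2, Id3, Hey2 and 1 of the 2 Hes6 windows lie inside the gene as given by the GENCODE coordinates further on, and for Id4 lie before it. Each stretch below is printed from 5′ to 3′ on the strand of its gene and ends before both starts, with the RBPJ core GTGGGAA or its reverse complement TTCCCAC in capitals. The Hes5 stretch lies at chr4:154960673-154960922 on the plus strand, that of Hey2 at chr10:30842802-30843033 on the minus strand, and that of Id4 at chr13:48260866-48261115 on the plus strand.
Hes5: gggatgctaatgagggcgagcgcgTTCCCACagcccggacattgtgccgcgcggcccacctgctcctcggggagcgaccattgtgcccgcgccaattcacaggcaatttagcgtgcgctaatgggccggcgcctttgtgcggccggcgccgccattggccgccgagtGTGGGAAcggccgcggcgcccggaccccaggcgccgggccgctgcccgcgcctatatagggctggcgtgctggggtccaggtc
Hey2: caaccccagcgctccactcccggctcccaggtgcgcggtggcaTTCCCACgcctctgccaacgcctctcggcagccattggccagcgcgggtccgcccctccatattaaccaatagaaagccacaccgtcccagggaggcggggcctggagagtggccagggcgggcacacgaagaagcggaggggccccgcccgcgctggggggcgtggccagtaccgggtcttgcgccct
Id4: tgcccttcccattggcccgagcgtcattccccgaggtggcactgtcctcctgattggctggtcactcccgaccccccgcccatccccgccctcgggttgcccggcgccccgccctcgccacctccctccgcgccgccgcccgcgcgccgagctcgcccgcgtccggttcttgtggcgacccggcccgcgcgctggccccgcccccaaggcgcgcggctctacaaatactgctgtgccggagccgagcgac

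In the Hes5 stretch the core begins 226 and 83 bases before the start, the more distal copy in reverse orientation. The Hey2 window also held 2 copies, of which the one beginning 207 bases before the start is printed and the other begins 4 bases before it, inside the GENCODE gene. Neither Id4 nor the windows of Id2, Id3 and Hes6 held these letters, which occur on either strand in 6.39% of 32817 RefSeq promoter windows. The letters GGCGCC, a core bound by BMP-responsive SMADs and its own reverse complement, began 148 bases before the RefSeq start of Id4 and 231 bases before that of Id2, the latter inside the GENCODE gene. They occurred 4 times upstream of Hes5, beginning 123, 106, 69 and 54 bases before the start, and the Hey2 window held 1 copy, 40 bases after the start. At least 1 copy was found in 11.9% of all windows. Such matches describe the sequence and do not show binding.

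The libraries were compared before the factors were described. Totals of normalised read counts lay between 31106330 and 32106791 per mouse, and since they are already scaled, sequencing depth is unknown and the precision of each value rests on the spread between mice. Arid1b averaged 1894 ± 86.6 in the HT group (SD, n = 5) and 2842 ± 142 in the WT group (SD, n = 5), with no overlap and a log2 fold change of -0.59 (SE 0.05, adjusted p = 9.96e-05 by limma). The cortical marker Slc17a7, the vesicular glutamate transporter of excitatory neurons, was present in every mouse at 37828 to 52447. HT2 stood apart with 8.43% of its signal from the mitochondrial genome, against 5.15% to 6.76% in the other 9 mice. HT2 and HT5 also had the highest astrocyte marker scores, at 1.49 and 1.19, where a score is the mean of the z-scores of 18 astrocyte and radial glia markers. The other 8 mice had scores between -1.04 and 0.37, and each factor is therefore also given without HT2 and HT5. That setting removes HT mice only, so it must lower the HT mean of any factor that was highest in them. Striatal markers set 3 libraries apart, HT5 again among them. Their sums were 11318 in HT5, 10832 in WT3 and 11041 in WT5 against 19189 to 29423 in the other 7 mice. The factors are given without these 3 mice as well, a choice made after seeing the data.

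Of 16781 genes with a mean of at least 10, 3 passed a limma adjusted p of 0.05 (0.0179%). These were Arid1b and, named after their values were seen, Dynlt1b and Tmem181b-ps, so 0 of the 9 factors passed. At an unadjusted p under 0.05, 3 factors (Id1, Id2 and Id4) were higher in HT and 0 were lower, where 4.71% of all genes were higher and 4.52% were lower. The 9 factors were selected on this contrast, and nothing is read from these counts. The fold change was above 0 for 7 of the 9, where it was above 0 for 48.8% of all genes tested. Without HT2 and HT5, and also with the astrocyte score as a covariate, it was above 0 for 3 of the 9 (Id1, Id2 and Id4). The median over the 9 was 0.11 on the log2 scale, against 0.00 over all genes tested. That median was 0.021 without HT2, 0.036 without HT5, 0.049 without WT2, 0.065 without WT1 and 0.040 without HT5, WT3 and WT5, and it was -0.031 without HT2 and HT5 and -0.047 with the astrocyte score as a covariate.

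With all 10 mice, the Id genes had the largest fold changes of the 9 factors, but with the astrocyte score as a covariate Hes5 had the largest in size. Id4 is the family member most tied to quiescent neural stem cells and astrocytes (ENSMUSG00000021379, chromosome 13, 48261228 to 48266026, plus strand). Its normalised read count was 1124, 1407, 1377, 1229 and 1363 in HT1 to HT5 and 966.5, 994.9, 719.0, 1186 and 917.9 in WT1 to WT5. All 5 HT values were above the WT mean and 4 of them were above every WT value, while HT1 lay under WT4. The means were 1300 ± 120 in HT and 957 ± 167 in WT (SD, n = 5 each), so that HT reached 135.8% of WT, with a log2 fold change of 0.46 (SE 0.11). Without HT2 and HT5 the log2 fold change of Id4 was 0.39, and leaving out each mouse in turn gave 0.36 to 0.54. With the astrocyte score as a covariate it was 0.33, and with a score of striatal markers in its place it was 0.41. Without HT5, WT3 and WT5 it was 0.29, and WT3 was the lowest of all mice for Id4, Id2 and Id1.

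Id2, an inhibitor of E proteins that cortical neurons also express, was the 1 factor whose groups did not overlap. Among all genes tested, 0.703% had every HT value above every WT value. Id2 (ENSMUSG00000020644, chromosome 12, 25093799 to 25097140, minus strand) measured 2940, 2955, 2907, 2946 and 2903 in HT1 to HT5 and 2675, 2648, 2411, 2869 and 2731 in WT1 to WT5. The gap between the groups was narrow, from 2869 in WT4 to 2903 in HT5, and it narrowed to 2874 and 2879 after upper-quartile rescaling. HT mice were nearly alike, with a coefficient of variation of 0.81%, against 6.24% in WT. The means of Id2 were 2930 ± 23.7 in HT and 2667 ± 166 in WT (SD, n = 5 each), which placed HT at 109.9% of WT with a log2 fold change of 0.14 (SE 0.05). That value was 0.14 without HT2 and HT5, 0.11 without HT5, WT3 and WT5 and 0.12 with the astrocyte score as a covariate.

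Id1 and Id3, the pair most often described as BMP targets in endothelial cells and astrocytes, were highest in HT2 and HT5. Id1 (ENSMUSG00000042745, chromosome 2, 152736251 to 152737410, plus strand) measured 289.7, 377.9, 280.7, 329.5 and 348.8 in HT1 to HT5 and 284.1, 300.0, 238.3, 238.7 and 255.6 in WT1 to WT5. All 5 HT values of Id1 were above the WT mean of 263 ± 27.7, but only HT2, HT4 and HT5 were above the highest WT value. The HT mean was 325 ± 40.6 (SD, n = 5), with a log2 fold change of 0.30 (SE 0.10), which became 0.19 without HT2 and HT5, 0.22 without HT5, WT3 and WT5 and 0.08 with the astrocyte score as a covariate.

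Id3 (ENSMUSG00000007872, chromosome 4, 136143497 to 136145755, plus strand) measured 770.7, 1277, 703.8, 792.6 and 1223 in HT1 to HT5 and 896.8, 888.1, 775.3, 844.4 and 799.6 in WT1 to WT5. HT2 and HT5 were far above every WT mouse, and the other 3 HT mice lay under the WT mean. The HT mean of 953 ± 273 (SD, n = 5) therefore had a coefficient of variation of 28.7%, against 6.34% around the WT mean of 841 ± 53.3 (SD, n = 5). The log2 fold change of Id3 was 0.14 (SE 0.15), 0.021 without HT2 and 0.036 without HT5, and it changed sign to -0.15 without HT2 and HT5, to -0.026 without HT5, WT3 and WT5 and to -0.24 with the astrocyte score as a covariate.

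**Figure D1:**
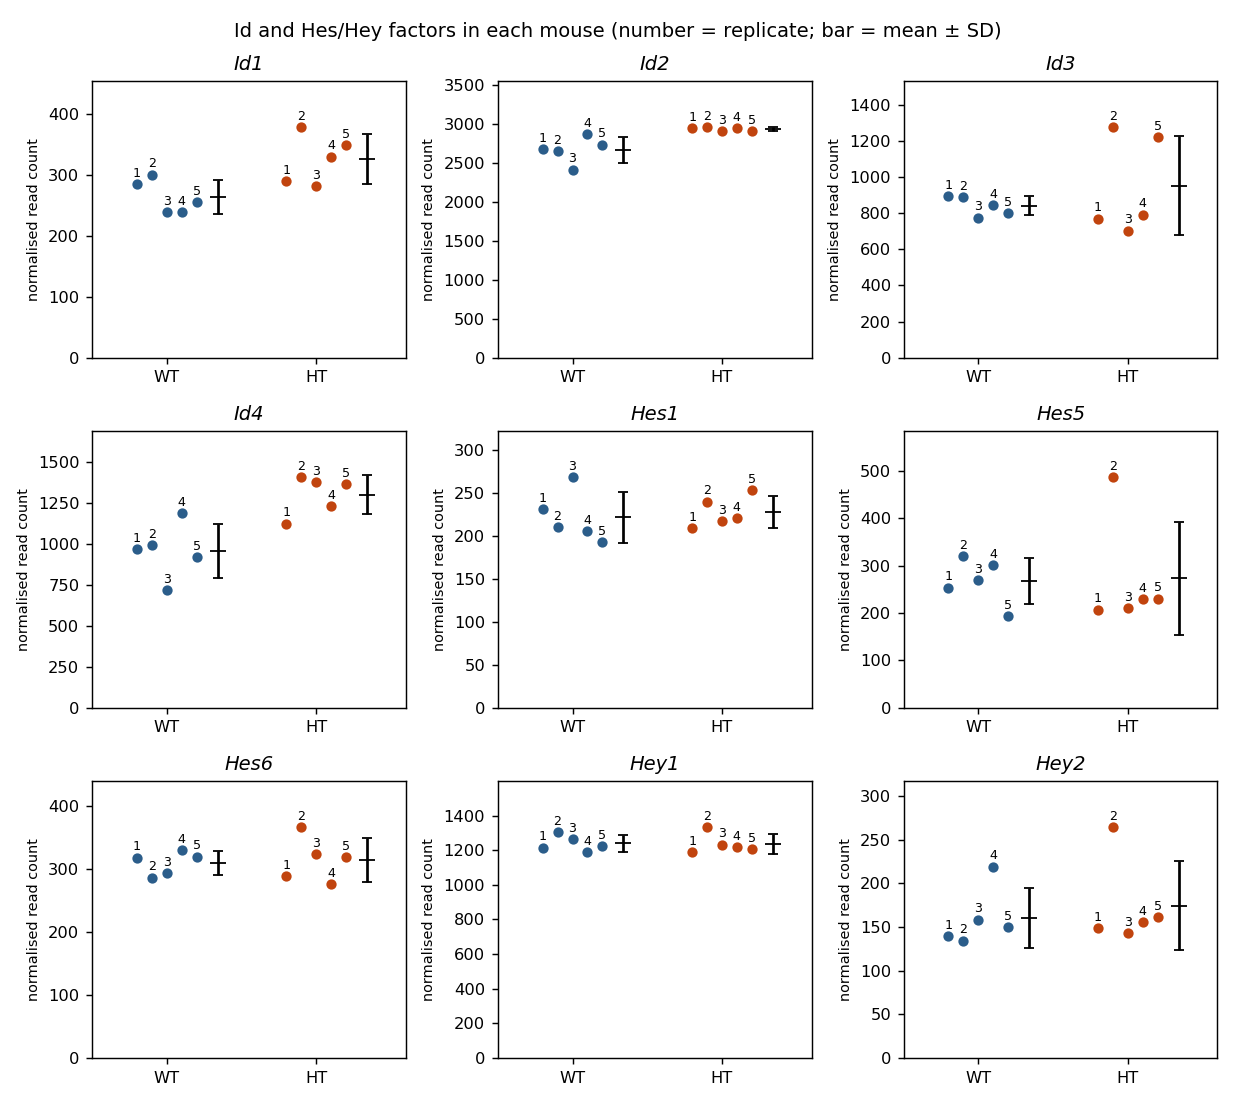
Normalised read count (y axis, from 0) of the 9 factors in each WT (blue) and HT (orange) mouse, numbered by replicate, with the group mean ± SD (n = 5) as a black bar. Id2 separates the genotypes with a narrow gap, 4 of 5 HT mice are above every WT mouse for Id4, and HT2 is the highest mouse for Hes5 (486.8) and Hey2 (264.1).

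The Hes and Hey genes differed less between the genotypes than within them. Hes5, a direct readout of Notch in radial glia (ENSMUSG00000048001, chromosome 4, 154960923 to 154962371, plus strand), measured 207.5, 486.8, 210.8, 229.9 and 230.4 in HT1 to HT5 and 253.6, 319.8, 269.2, 300.7 and 193.8 in WT1 to WT5. HT2 was far above the other 9 mice, while HT1, HT3, HT4 and HT5 were all under the WT mean. The means were 273 ± 120 in HT and 267 ± 48.7 in WT (SD, n = 5 each), with a log2 fold change of -0.04 (SE 0.21) that became -0.26 without HT2, -0.145 without WT5, 0.043 without HT1 and -0.29 without HT2 and HT5. With the astrocyte score as a covariate it was -0.39.

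Hey2, a Notch effector of arterial endothelium (ENSMUSG00000019789, chromosome 10, 30832359 to 30842801, minus strand), measured 149.0, 264.1, 143.2, 155.5 and 161.0 in HT1 to HT5. In WT1 to WT5 it measured 139.3, 134.3, 158.4, 219.2 and 149.7. A single mouse stood above the rest in each genotype, HT2 and WT4, and the other 8 mice lay between 134.3 and 161.0. The means of Hey2 were 175 ± 50.5 in HT and 160 ± 34.3 in WT (SD, n = 5 each), and the log2 fold change of 0.11 (SE 0.18) was -0.05 without HT2, -0.08 without HT2 and HT5 and 0.22 without WT4.

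Hes1, Hes6 and Hey1 had nearly the same mean in both genotypes. Hes1, the oscillating repressor of proneural genes (ENSMUSG00000022528, chromosome 16, 30064384 to 30067796, plus strand), ranged from 208.5 to 253.4 in HT and from 192.4 to 268.0 in WT, with a log2 fold change of 0.05 (SE 0.10). Hes6, which unlike its relatives opposes Hes1 and favours neuronal differentiation (ENSMUSG00000067071, chromosome 1, 91411483 to 91414038, minus strand), ranged from 276.0 to 366.5 in HT and from 286.6 to 330.4 in WT, with a log2 fold change of 0.02 (SE 0.09). Hey1, which acts with Hey2 in vessels and is also found in glia (ENSMUSG00000040289, chromosome 3, 8663359 to 8667256, minus strand), was the steadiest of the Hes and Hey factors. It had means of 1236 ± 56.2 in HT and 1240 ± 47.0 in WT (SD, n = 5 each) and a log2 fold change between -0.11 and 0.10 in its 95% interval. Without HT2 and HT5 the log2 fold changes of Hes1, Hes6 and Hey1 were -0.030, -0.064 and -0.031. Single mice also set these small values, since leaving out each mouse in turn gave 0.00 (without WT5) to 0.12 (without WT3) for Hes1, -0.036 (without HT2) to 0.066 (without HT4) for Hes6 and -0.032 (without HT2) to 0.015 (without WT2) for Hey1. Without HT5, WT3 and WT5 the values of Hes1, Hes5, Hes6, Hey1 and Hey2 were 0.040, -0.13, 0.005, 0.006 and 0.10.

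**Figure D2:**
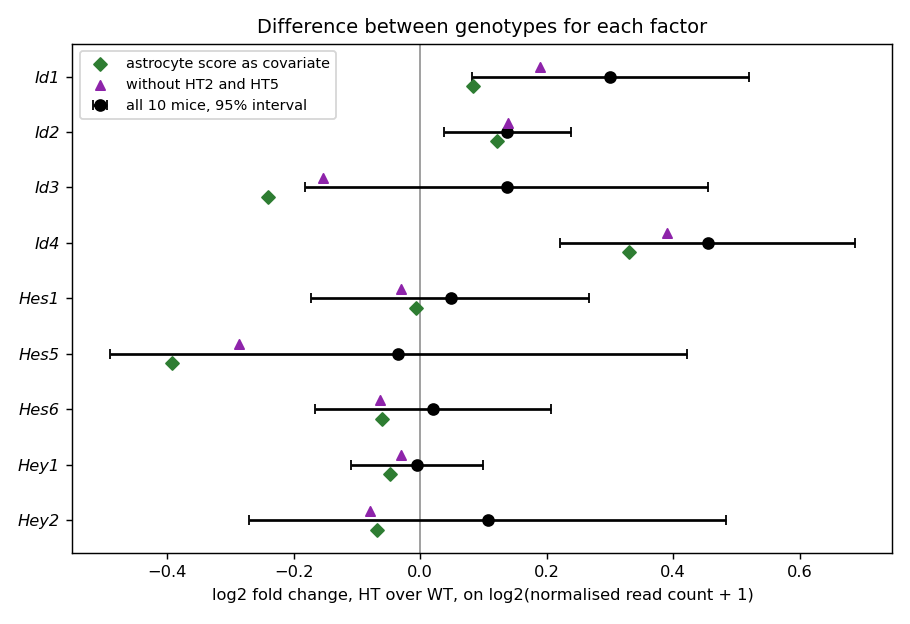
Log2 fold change of HT over WT (x axis) for each factor. Black points show all 10 mice with the 95% interval of the fold change from limma, given as a description. Triangles are without HT2 and HT5, and diamonds have the astrocyte score as a covariate. Id4, Id2 and Id1 are above 0 in all 3 settings, whereas Id3 moves from 0.14 to -0.15 and -0.24.

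Cell type markers moved with the same mice, and in bulk tissue fewer cells of a type and less RNA per cell cannot be told apart. Of 18 astrocyte and radial glia markers, 17 were higher in HT and 11 had an unadjusted limma p under 0.05, with 0 past the adjusted threshold and a median log2 fold change of 0.23. Their summed normalised read count ranged from 180629 to 232662 in HT and from 165809 to 194572 in WT, and no marker of the list was at 0 in every mouse. Gfap, the astrocyte intermediate filament, named after its values were seen, reached 13936 in HT5, while the other 9 mice lay between 3072 and 5007. All 12 microglia markers were higher in HT, 3 of them at an unadjusted p under 0.05, with sums of 11586 to 16196 in HT and 11223 to 12987 in WT. Endothelial and mural markers were higher for 14 of 17, with 0 at an unadjusted p under 0.05, and summed to 18741 to 25713 in HT and 19347 to 21216 in WT.

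HT2 had the highest HT sum for the astrocyte, endothelial and microglia lists, as it had for each of the 9 factors but Hes1. Markers of subventricular progenitors and olfactory bulb neurons summed to 18919 in WT4 and 17682 in HT2, the mice that were highest for Hey2. In the other 8 mice they summed to 9293 to 13342. Of these 16 markers 15 were higher in HT and 1 was lower, with 0 at an unadjusted p under 0.05. Their median log2 fold change was 0.27. Striatal markers summed to 11318 to 29423 in HT and 10832 to 22993 in WT, and 13 of 14 were higher in HT with 0 at an unadjusted p under 0.05. Cortical neuron markers were higher for 7 of 16 and lower for 9, and 3 of the 9 had an unadjusted p under 0.05. Oligodendrocyte lineage markers, with a median log2 fold change of 0.28, summed to 76871 to 105769 in HT and 46883 (WT3) to 109565 in WT. They were higher for 13 of 14 and meningeal and choroid plexus markers for 5 of 10, with 1 of each list higher at an unadjusted p under 0.05, and all 5 blood markers were lower in HT, 1 of them at an unadjusted p under 0.05. The part of these cell types in the values of the factors was not tested beyond the covariate values above.

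Levels were compared between the factors per kilobase of exon, averaged over all 10 mice. Id2 was the most abundant at 1148 ± 73.2 normalised read counts per kb (SD, n = 10), followed by Id3 at 501 ± 109 and Hey1 at 379 ± 14.97, and each of these was above the next factor in 10 of 10 mice. Id4 (293 ± 59.0), Id1 (254 ± 39.9), Hes5 (198 ± 63.4) and Hes6 (173 ± 14.7) formed a middle group whose neighbours did not separate. Id4 was above Id1 in 8 mice, Id1 above Hes5 in 8 and Hes5 above Hes6 in 6. Hes1 at 110 ± 11.5 was under Hes6 and above Hey2 in 10 of 10 mice, and Hey2 was the lowest at 36.4 ± 9.01. The order was the same with the length of the longest transcript.

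Within the Id family, the share of each gene in the summed level per kb was compared between genotypes as a description. Id4 made up 14.4% ± 1.15 of the family in HT and 12.1% ± 1.42 in WT (SD, n = 5 each). Id2, the main Id transcript, made up 51.4% ± 4.33 in HT and 53.7% ± 1.52 in WT. Id3 made up 22.3% ± 4.44 and 23.0% ± 1.04, and Id1 made up 11.9% ± 0.644 and 11.1% ± 1.05. Id2 held the largest share in both genotypes, from 46.3% to 55.4% in HT mice and from 51.7% to 55.3% in WT mice. The shares were not recomputed without HT2 and HT5, and the share of Id4 follows the values it was picked on.

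**Figure D3:**
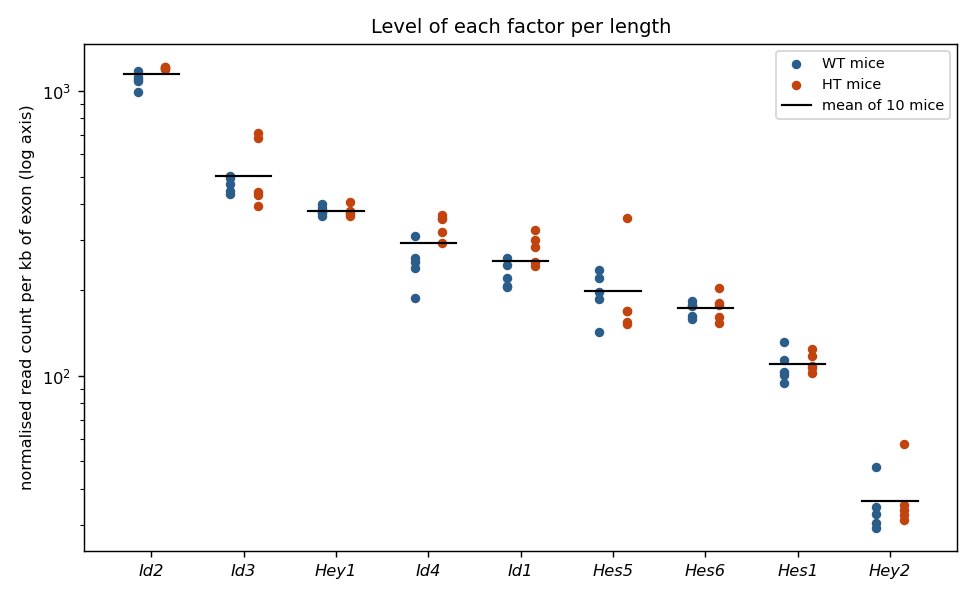
Normalised read count per kb of exon (y axis, log scale) of each factor in WT (blue) and HT (orange) mice, ordered by the mean of 10 mice (black line). Id2 is highest at 1148 and Hey2 lowest at 36.4, and Id4, Id1, Hes5 and Hes6 overlap their neighbours.

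The way the factors varied from mouse to mouse within a genotype was not used to pick them, and it was tested after the genotype means were removed. Of 36 pairs, 32 had a Pearson r above 0 over 10 mice, 4 had an unadjusted p under 0.05 by exact two-sided permutation within genotype, and 0 passed Benjamini-Hochberg adjustment over the 36 pairs. By Spearman rho, 3 pairs had an unadjusted p under 0.05 and 0 passed. The 10 mice share differences in tissue and library, so that all pairs draw on the same samples.

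Id1 and Id3 had the smallest p of the 36 pairs, with r = 0.79 (exact permutation p = 0.00826, adjusted p = 0.297) and rho = 0.87 (exact permutation p = 0.0025, adjusted p = 0.09). Without HT2 and HT3, the mice farthest from the median of Id1, their r was 0.62. Id3 and Hes5 had r = 0.66 (exact permutation p = 0.0181, adjusted p = 0.325) and rho = 0.65 (exact permutation p = 0.0299, adjusted p = 0.455), and r = 0.63 without HT2 and HT5. Id4 and Hes6 had r = 0.57 (exact permutation p = 0.0482, adjusted p = 0.333) and rho = 0.70 (exact permutation p = 0.0379, adjusted p = 0.455), and r = 0.63 without WT3 and WT4. Hes6 and Hey2 had r = 0.70 (exact permutation p = 0.0415, adjusted p = 0.333) and rho = 0.54 (exact permutation p = 0.134), and r = 0.48 without the 2 mice farthest from the median. None of these pairs is shown to be related at this number of mice.

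Other pairs with a high r had an unadjusted p above 0.05, and some of them rested on single mice. Id2 and Id4 had the highest r of all, 0.81 (exact permutation p = 0.074), but rho was 0.38 (exact permutation p = 0.318), and r was -0.35 without WT3 and WT4, the lowest and the highest WT mouse for both genes. Hes5 and Hey1 had r = 0.75 (exact permutation p = 0.0542), which became -0.04 without HT2 and WT2. Hes5 and Hey2 had r = 0.76 (exact permutation p = 0.0709) and rho = 0.41 (exact permutation p = 0.25), and their r was 0.73 without the same mice. Id2 and Hes1 were opposed, with r = -0.73 (exact permutation p = 0.0697) and -0.50 without the 2 mice farthest from the median.

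**Figure D4:**
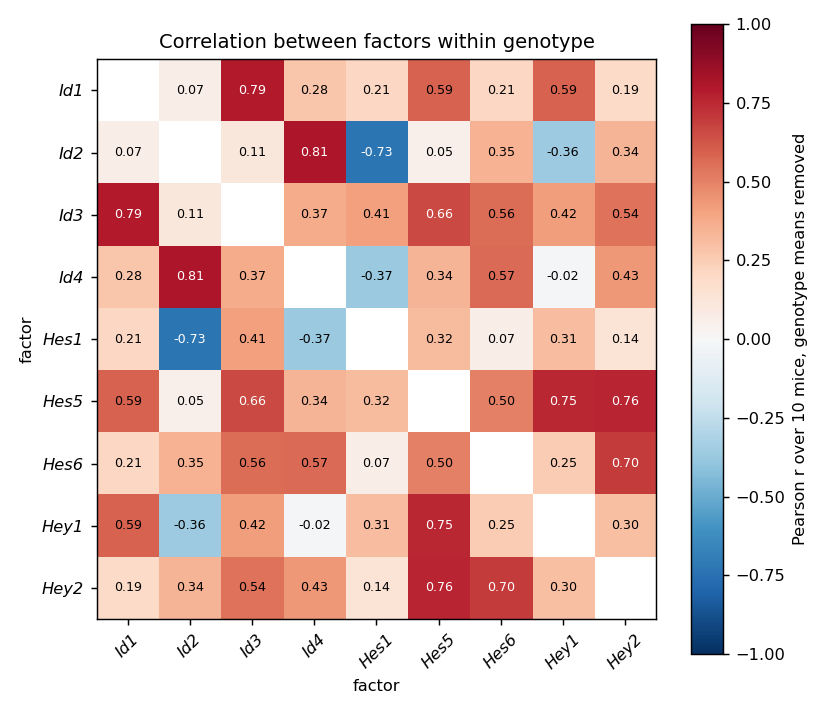
Pearson r between the 9 factors (rows and columns) over 10 mice after removal of the genotype means, from -1 (blue) to 1 (red). Of the 36 pairs 32 are above 0, with 0.81 for Id2 and Id4, 0.79 for Id1 and Id3 and -0.73 for Id2 and Hes1.

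The genes whose values followed each factor most closely were ranked by Pearson r over the same 10 mice, among 13888 genes with a mean of at least 50, as a description. Nearest to Id4 were Tmem98 (r = 0.95), Arhgap11a (r = 0.95), Acd (r = 0.94), Sncaip (r = 0.94) and Ccdc34 (r = 0.94). Without the 2 mice farthest from the median of Id4, their r was between 0.78 for Acd and 0.86 for Arhgap11a, Sncaip and Tmem98. Id1 was followed most closely by Tbc1d9b (0.97). Id3 was followed by Tgfb1 (0.99), a growth factor, and Sgpl1 (0.99), which breaks down sphingosine phosphate. The r of Tgfb1 with Id3 was 0.97 and that of Sgpl1 0.96 without the 2 farthest mice.

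Hes5 was followed by Nos3 (r = 0.96), the endothelial nitric oxide synthase, and BC034090 (0.95). For Hes1 the nearest were Lrrc32 (0.94) and Tal1 (0.90), a bHLH factor of blood and endothelium, and for Hey1 they were Zcchc4 (0.93) and Ipo13 (0.92). Hes6 was followed by Irak1 (0.95) and Smarcd3 (0.92), another BAF subunit, and Hey2 by Adarb2 (0.97), an interneuron gene, and Fam126a (0.97). For Id2 the nearest were Arhgef10 (0.97) and Chadl (0.94), but their r was 0.54 and 0.13 without the 2 farthest mice, and that of Fam126a with Hey2 was 0.59. For the other genes named as nearest, r without the 2 farthest mice was between 0.75 and 0.97. With 10 mice and 13888 genes, high values of r arise in number, and they carry no test here.

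Lists of 111 genes, of which 106 were tested, covered the Notch and BMP pathways upstream of the factors. They also held bHLH partners, Groucho co-repressors and further Hes and Hey family members, which are not upstream. By limma, 0 of the 106 passed the adjusted threshold, and 9 had an unadjusted p under 0.05, 5 higher and 4 lower in HT. Of the 106, 58 were higher and 48 lower, with a median log2 fold change of 0.02. The 5 genes higher, of which 2 were bHLH partners, and the 4 lower stand beside 4.71% and 4.52% of all genes. The 9 became 14 without HT3, 15 without WT4, 5 without WT3 or without WT5, 4 without HT5, 4 with the astrocyte score as a covariate and 3 without HT5, WT3 and WT5.

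Among the 11 Notch ligands and receptors, 8 were higher in HT and 0 had an unadjusted p under 0.05, with a median log2 fold change of 0.12. That median was 0.045 without HT2, 0.066 without WT5, -0.009 without HT2 and HT5 and -0.057 with the astrocyte score as a covariate. Notch1, the main receptor of radial glia, had 1484 ± 162 in HT and 1403 ± 101 in WT (SD, n = 5 each), a log2 fold change of 0.08. HT2 was the highest mouse for Notch1, at 1702. Notch2, the receptor of astrocytes and their precursors, had 860 ± 179 and 739 ± 82.0, a log2 fold change of 0.20 (adjusted p = 0.60 by limma). It was 1063 in HT2 and 1041 in HT5, against 670.2 to 772.6 in HT1, HT3 and HT4 and 672.7 to 848.2 in WT. Notch3, the receptor of mural cells, had a log2 fold change of 0.12. Its values were 1452 in HT2 and 1336 in HT5, against 1053 to 1224 in HT1, HT3 and HT4 and 1056 to 1256 in WT. The ligands Dll1 (183 ± 41.7 in HT and 172 ± 53.1 in WT), Jag1 (316 ± 57.9 and 289 ± 38.7) and Jag2 (1489 ± 191 and 1536 ± 96.8) differed by less than their SDs.

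Of 32 genes for Notch processing, modulation and nuclear partners, 14 were higher and 18 lower. Numb, the endocytic inhibitor of Notch, had the smallest p of the list, at 1097 ± 78.8 in HT and 1311 ± 161 in WT (SD, n = 5 each), with a log2 fold change of -0.25 (SE 0.08, adjusted p = 0.47 by limma). Its HT values ran from 979.7 to 1198 and its WT values from 1118 to 1546, so the groups overlapped. Dtx4, a Deltex ubiquitin ligase, had a log2 fold change of -0.10 (SE 0.05, adjusted p = 0.52 by limma). The Fringe glycosyltransferase Lfng had a log2 fold change of 0.16, and RBPJ itself, encoded by Rbpj, had 1133 ± 51.1 in HT and 1184 ± 9.05 in WT. Named after their values were seen, Ncstn, the nicastrin subunit of gamma-secretase, was higher in HT without overlap (2315 ± 32.6 and 2198 ± 53.9), and Dtx2 was lower without overlap (242 ± 10.2 and 262 ± 5.96). Over all genes tested, 0.703% were higher and 0.918% lower without overlap, and 1 of 32 in each direction is read no further.

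On the BMP side, 9 of 19 ligands, receptors and co-receptors were higher and 10 lower. Bmpr1a and Bmpr1b, the type I receptors that phosphorylate SMAD1, SMAD5 and SMAD9, were the 2 with an unadjusted p under 0.05. Bmpr1a had 2180 ± 115 in HT and 2005 ± 97.9 in WT (SD, n = 5 each), with a log2 fold change of 0.12 (SE 0.05, adjusted p = 0.51 by limma). Bmpr1b had 754 ± 69.4 and 668 ± 62.8, with a log2 fold change of 0.18 (SE 0.08, adjusted p = 0.53 by limma). Neither passed the threshold, and both overlapped between groups. The type II receptor Bmpr2 had a log2 fold change of -0.10, and the ligands Bmp4, Bmp6 and Bmp7 had -0.26, 0.05 and 0.09.

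Of 12 BMP antagonists 8 were higher in HT. The median of their log2 fold changes was 0.071, and it was 0.012 without HT5, 0.046 without HT2, 0.039 without WT1, -0.027 without HT2 and HT5 and -0.023 with the astrocyte score as a covariate. Fst, which encodes follistatin, a trap for activins and BMPs, had the smallest p of the list. Fst measured 57.3, 71.2, 39.1, 29.2 and 29.5 in HT1 to HT5 and 25.4, 16.1, 28.5, 36.01 and 17.3 in WT1 to WT5. Its values were low and the groups overlapped, with a log2 fold change of 0.82 (SE 0.29, adjusted p = 0.48 by limma). Of 12 SMADs and modulators 6 were higher and 6 lower. The BMP effectors Smad1 (948 ± 57.6 in HT and 940 ± 53.8 in WT), Smad5 (1338 ± 225 and 1289 ± 117) and Smad9 (324 ± 30.8 and 320 ± 30.0) had log2 fold changes of 0.01, 0.04 and 0.02. Of the inhibitory SMADs, Smad6 had a log2 fold change of 0.28 (SE 0.20) and Smad7 of -0.05. Zeb2, a SMAD-binding repressor, had -0.12 (SE 0.05, adjusted p = 0.51 by limma) and Tob1, an inhibitor of BMP signalling, had -0.23 (SE 0.10, adjusted p = 0.52 by limma).

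The bHLH partners that Id and Hes proteins restrain were also examined, and 9 of 13 were higher in HT. The E proteins Tcf3 and Tcf4 had log2 fold changes of 0.07 and -0.08. Tcf12 had 1930 ± 241 in HT and 1695 ± 182 in WT (SD, n = 5 each), a log2 fold change of 0.18 (adjusted p = 0.55 by limma). Its values were 2270 in HT2 and 2092 in HT5, against 1716 to 1826 in HT1, HT3 and HT4 and 1472 to 1958 in WT. The proneural gene Neurog2 was low, at 19.5 ± 4.40 and 11.2 ± 4.97, with a log2 fold change of 0.83 (SE 0.33, adjusted p = 0.51 by limma). Bhlhe41, a bHLH repressor of the circadian clock, had 346 ± 33.1 and 293 ± 30.1, a log2 fold change of 0.24 (SE 0.09, adjusted p = 0.49 by limma). Neurod2 of cortical neurons and Olig2 of the oligodendrocyte lineage had log2 fold changes of 0.05 and 0.14.

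Of 6 Groucho co-repressors 3 were higher and 3 lower, with Tle1 at 0.03 and Tle5, listed under its older symbol Aes, at -0.01. Of 5 further Hes and Hey family members Heyl, a Notch effector of mural cells, was the 1 gene tested, with 404 ± 91.4 in HT and 339 ± 41.1 in WT (SD, n = 5 each) and a log2 fold change of 0.24 (SE 0.13, adjusted p = 0.58 by limma). Heyl was 561.7 in HT2, above the other 9 mice, and its log2 fold change was 0.11 without HT2. Hes7, the somite oscillator, had a mean of 8.88 and was under the filter.

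**Figure D5:**
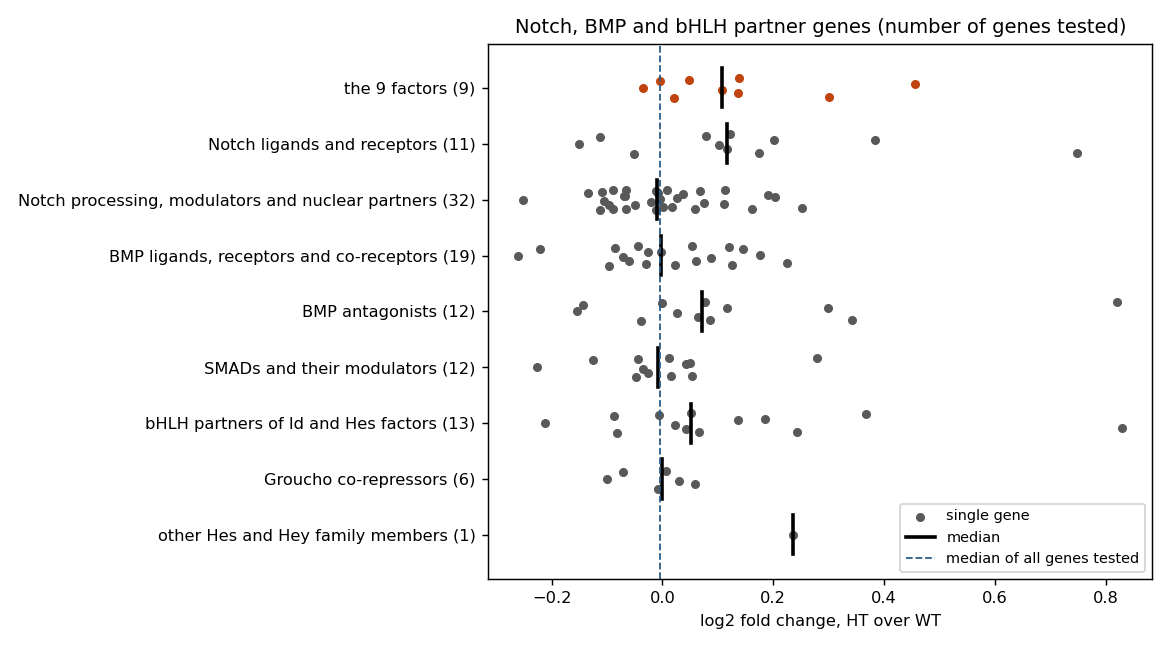
Log2 fold change of HT over WT (x axis) for the 9 factors (orange) and for each tested gene of the Notch, BMP and bHLH lists (grey), with the list median (black bar) and the median of all genes (dashed line). The list medians lie between -0.01 and 0.12, except for the list with the 1 tested gene Heyl at 0.24 (0.11 without HT2). Fst (0.82) and Neurog2 (0.83) are among the genes farthest to the right.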

How the data were processed

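RNA-seq was examined in 10 mouse prefrontal cortex samples, grouped as HT or WT by the sample titles. Per the labels and the methods of the study, stranded poly-A libraries were quantified with Salmon (version 1.1.0) on GRCm38 with a GC bias correction, summed to genes with tximport, and divided by DESeq2 (version 1.30.1) size factors. The deposited values are this normalised signal per gene, not whole reads, so depth is unknown, no count-based test was used, and a shift in total RNA per cell would not appear. No column of values per sample was left unused. Salmon divides reads between similar transcripts by a model.

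Values were transformed as log2(value + 1), and genes with a mean of at least 10 were fitted with limma (version 3.58.1, R 4.3.3; lmFit, eBayes with trend), genotype being the only term, and Benjamini-Hochberg adjustment over all 16781 genes (threshold 0.05). Fold changes of low genes are understated on this scale. Symbols and positions were taken from GENCODE M21 (18205 of 18216 identifiers found), and promoter windows from RefSeq (GRCm38.p6). Normalised counts per kb used the union of exons. Correlations between factors used values centred on the genotype mean, with all 14400 permutations of mice within genotype (smallest possible p 6.9e-05). The other steps used scipy 1.17.1, pandas 2.3.3, numpy 2.4.6 and matplotlib 3.10.9 under Python 3.11.15, and the fit was tested on simulated data.

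The 9 factors, the pathway and marker lists and the tests were chosen with earlier results of these data known. Beside the 9 factors and Arid1b, the genes named were a fixed set of pathway genes, up to 3 genes per list with the smallest unadjusted p under 0.05, the 5 genes most like Id4 and the 2 most like each other factor. Some genes that this rule names are not reported here. Genes named after their values were seen are marked, and Slc17a7 was named as a check of the tissue. Results were recomputed with a pseudocount of 0.5 or 10, without the filter, with a minimum mean of 50, with upper-quartile or quantile scaling, without a variance trend, with sample weights, with the replicate number as a block, with astrocyte or striatal scores as covariates, and with mice left out, of which the set HT5, WT3 and WT5 was added after seeing the data. The labels name no litter, batch or sequencing date. Replicates are different mice.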

Additional observations from a re-analysis of the deposited data

Results flagged for a closer look

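Of 38 groups of 5 mice examined (each factor, Arid1b and each marker list, in each genotype), 4 held a mouse whose distance from its nearest neighbour exceeded the 95% critical value of 0.71 for that distance as a share of the range of the group. Chance flags about 1 in 20 groups, or 1.9 of the 38. Hes5 in HT2 was 486.8, while the other HT mice lay between 207.5 and 230.4. Hey2 in HT2 was 264.1, against 143.2 to 161.0 in the other HT mice. Hey2 in WT4 was 219.2, against 134.3 to 158.4 in the other WT mice. The summed markers of subventricular progenitors and olfactory bulb neurons in WT4 were 18919, against 9293 to 11909 in the other WT mice.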

How the results depend on the processing

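Id4, Id2 and Id1 were higher in HT under each alternative, Id4 by 0.29 to 0.54 on the log2 scale, Id2 by 0.10 to 0.17 and Id1 by 0.083 to 0.35. The filters, the variance trend and the block cannot move a fold change and bear on calls alone. The median of the 9 factors was -0.047 with the astrocyte score as a covariate and -0.031 without HT2 and HT5, and 0.02 to 0.14 when each mouse was left out. It was 0.021 with sample weights and 0.062 with quantile scaling. Sample weights also gave a log2 fold change of 0.015 for Id3 and -0.18 for Hes5. Pathway genes with an unadjusted p under 0.05 numbered 4 with the astrocyte score as a covariate, 3 without HT5, WT3 and WT5 (added after seeing the data) and 4 (without HT5) to 15 (without WT4) when each mouse was left out. Genes past the adjusted threshold numbered 3 or 4 throughout, and pairs of factors past it 0 throughout. With the longest transcript, values per kb of Id2, Id3, Hes1, Hes6, Hey1 and Hey2 were higher by more than their SD over mice, since that transcript is shorter than the union of exons.

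The replicate numbers 1 to 5 belong to different mice. The mean correlation of deviations was 0.04 for mice with the same number and -0.01 for mice with different numbers. No sign of pairing by number was seen, but 5 pairs with the same number cannot exclude it. With the replicate number as a block 3 genes passed the threshold. Depth is unknown, and 5 mice per genotype limit what can be seen.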
